A study of Mus musculus with 9 samples.

Results

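The kidneys of mice with hyperuricemic nephropathy (HN) were compared with the kidneys of Control mice by sequencing of poly(A)-selected RNA, with 1 library per mouse. The comparison took 6 of the 9 libraries of the series, chosen by their labelled disease state and by having had no treatment: the 3 Control libraries with replicate numbers 2, 4 and 5, and the 3 HN libraries with replicate numbers 4, 8 and 12. All mice were young adult males of the strain labelled C57BL/6 (C57BL/6J in the study's methods). On alternate days over about a month, the HN mice were fed potassium oxonate together with adenine, which induced the disease. No agent or vehicle is named for the Control mice, and the libraries of mice given pectolinarigenin (PEC) took no part in the comparison.

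Potassium oxonate blocks uricase, the enzyme with which mice break down urate, and adenine adds purine that xanthine dehydrogenase turns into poorly soluble products. The proximal tubule takes back most of the filtered salts, sugars, amino acids and proteins, and it draws its energy mainly from fatty acids burned in mitochondria and peroxisomes. Injured tubules are known to switch on genes that a healthy kidney hardly uses, and lasting injury brings in immune cells and matrix-forming fibroblasts.

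Total counts were 75320528, 74965874 and 78459183 in Control and 74315544, 81069646 and 74212324 in HN, and values of single mice are given in this order throughout, Control replicates 2, 4 and 5 and HN replicates 4, 8 and 12. Multiples of 4 were in excess among the low counts of the deposited table: a count of 4 was the most frequent count above 0 in each of the 6 libraries, with 6012 values of 4 against 4196 of 1, 2911 of 3 and 4008 of 5. What 1 count stands for is not given in the sources used here, so intervals for counting error are not given. Levels are written as scaled FPKM, which is the deposited FPKM (counts scaled to the length of the gene and to the total of the library) divided by the library's TMM factor. TMM factors correct for a few very abundant genes taking up a changing share of a library. They were 0.855, 0.869 and 0.806 in Control and 1.16, 1.18 and 1.22 in HN.

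Defining genes of the labelled tissue, kidney, were present in all 6 libraries. Umod of the thick limb was at 989, 1079 and 1058 scaled FPKM in Control and 1194, 1059 and 1119 in HN, and Nphs1 of podocytes at 4.80, 4.56 and 4.68 and 5.89, 5.52 and 4.84. Genes of the mitochondrial genome took 13.3, 12.9 and 16.3% of the counts in Control and 6.01, 6.22 and 6.34% in HN. The mean share was 14.2 ± 1.82% (SD, n = 3) in Control and 6.19 ± 0.164% in HN, a difference of -7.98 points over 37 genes. The groups did not overlap, and the exact permutation test (two-sided) gave p = 0.1, the smallest value that 3 against 3 mice allow. In a principal component analysis the first component held 81.02% of the variance and separated Control from HN. The second held 6.36%, with Control replicate 5 at 24.99 and Control replicate 2 at -15.8. The sample titles name the disease group for Control mice too, and the labelled disease state was followed.

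Injury, matrix and immune genes were higher in HN kidneys, and transport and metabolic genes of the tubules were lower. edgeR tested the 15189 of 55385 genes whose FPKM averaged 0.5 or more over the 6 libraries. A gene is called, and said to have risen or fallen, when its Benjamini-Hochberg adjusted p is at most 0.05 and its fold change at least 1.5. By this rule 5637 genes (37.1%) were called: 3067 (20.2%) rose and 2570 (16.9%) fell. The median absolute log2 difference of the called genes was 1.247. In 9476 genes (62.4%) the scaled FPKM of the groups did not overlap. Changes of at least 4-fold were more frequent upward (1081 genes) than downward (325 genes). Of the 100 genes with the highest level in Control, 78 fell and 1 rose. Of the 100 with the highest level in HN, 18 rose and 45 fell, and 66 genes belonged to both sets of 100. All log2 differences are HN minus Control, given with their standard error (SE) from edgeR for 3 against 3 mice.

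The direction of small differences depends on the scaling. With TMM factors the tested genes had a median log2 difference of 0.02. With total counts alone, which make no correction for composition, it was 0.51, and the calls became 6245 higher and 1161 lower. Where a named gene loses its call with total counts alone, its value under that scaling is given. In whole kidney, fewer cells of a type and less RNA per cell cannot be told apart.

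**Figure D1:**
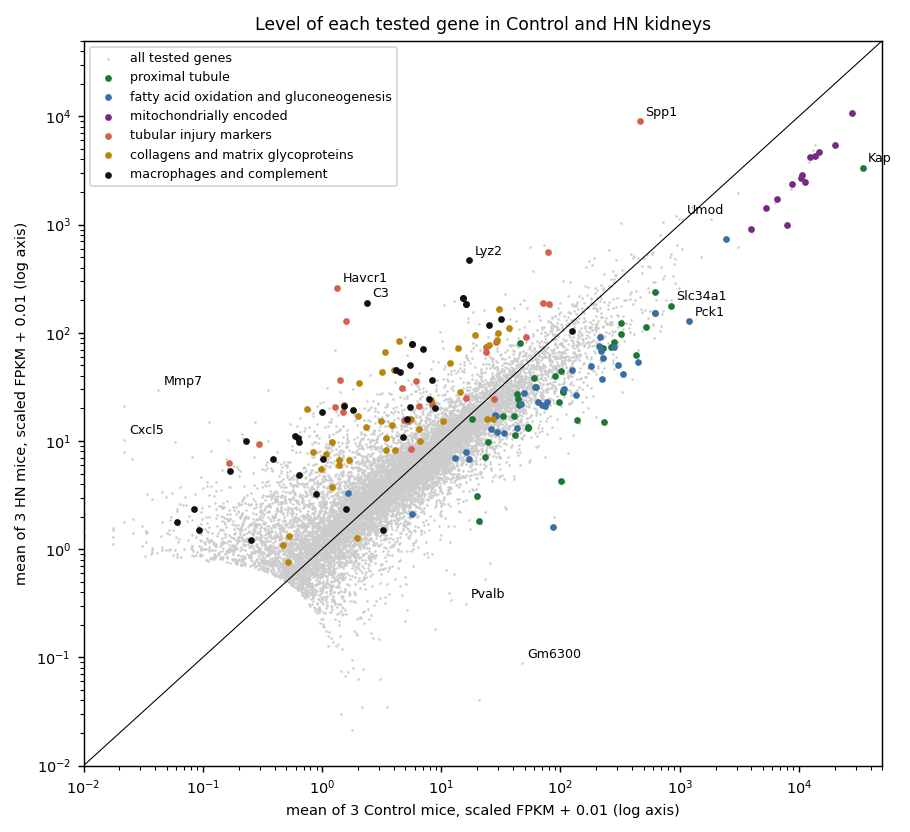
Mean scaled FPKM of each of the 15189 tested genes in Control (x axis) and HN (y axis), both on log axes after adding 0.01, with members of selected gene lists in colour and some genes labelled. Of the 100 genes with the highest Control level, 78 fell, and 1081 genes rose at least 4-fold against 325 that fell as much.

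Genes were grouped into 55 lists with 920 members, of which 866 were tested, 322 rose and 300 fell. Over all tested genes 20.2% rose and 16.9% fell. The lists were written with earlier results of these data known, so their counts are a description and no independent evidence. By kind of list, 22 of 24 tested injury markers rose. Of 156 tested immune genes, 128 rose and 4 fell, and of 100 matrix genes 76 rose and 8 fell. A gene near 0 in Control reaches the mean of 0.5 FPKM needed for testing only through HN. Without a filter on level, 139 of 187 immune genes rose and 5 fell. Metabolic genes went the other way, with 174 of 242 tested members lower and 11 higher. Genes of the nephron were lower in 91 and higher in 27 of 178 cases. Among them were the purine and transcription factor lists, not all of whose members are markers of the nephron. By total counts alone 117 metabolic genes were lower and 26 higher, and 63 nephron genes lower and 47 higher; for immune genes it was 0 and 140, and for matrix genes 3 and 85.

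Tubular injury markers rose with 2 exceptions, with a median log2 difference of 1.71 against 0.02 for all genes. Havcr1 (ENSMUSG00000040405, chr11:46735080-46779578 of GRCm38), the membrane receptor known as KIM-1 by which injured proximal tubule cells take up debris, was at 1.80, 0.967 and 1.20 scaled FPKM in Control and at 237, 274 and 274 in HN. Vcam1, an adhesion molecule of inflamed tubules, was at 1.44, 1.53 and 1.27 and 40.1, 38.3 and 30.8. Sox9, a transcription factor of regenerating tubule cells, was at 0.222, 0.0921 and 0.149 and 7.84, 4.997 and 6.04. In each of these genes all HN mice lay far above all Control mice, with log2 differences of 7.65 ± 0.27, 4.71 ± 0.14 and 5.35 ± 0.36 and adjusted p of 8.78e-06, 8.36e-06 and 4.01e-05 in edgeR. The matrix phosphoprotein Spp1 was among the most abundant transcripts of HN kidney, at 454, 493 and 440.0 in Control and 9826, 8627 and 8537 in HN (4.31 ± 0.12). Krt20 varied more, at 2.14, 1.51 and 0.149 in Control and 26.5, 25.3 and 10.7 in HN (4.05 ± 0.82, adjusted p 0.00535; 4.66 without Control replicate 2). Lcn2, an iron-carrier protein of the stressed nephron, rose 81.02-fold, from 1.60, 2.31 and 0.819 to 152, 119 and 112. Other members that rose were Cd44 (5.03), Dcdc2a (3.66), Clu (2.86), Krt19 (2.72), Krt8 (1.23) and Vim (1.40). The lipid droplet protein Plin2 was at 45.0, 19.97 and 17.9 in Control and 23.9, 28.4 and 20.8 in HN (-0.16 ± 0.35), so that the groups overlapped, with Control replicate 2 the highest mouse.

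Among genes whose FPKM averaged 5 or more, the 10 largest rises with no overlap between the groups were, in order, Cxcl5, Mmp7, Il1f6, Havcr1, Cxcl17, Fcrls, Serpina10, Lcn2, C3 and Ccl8. The neutrophil-attracting chemokine Cxcl5 was at 0.0351, 0 and 0 scaled FPKM in Control and at 12.8, 9.22 and 8.74 in HN. Il1f6, an interleukin of the IL-36 family, was at 0.0585, 0 and 0 and 15.2, 12.7 and 9.92. Both were close to 0 counts in Control (4, 0 and 0 counts for Cxcl5, 4, 0 and 0 for Il1f6), so that the size of their log2 differences rests on the single Control mouse with any count. Cxcl5 was at 9.89 with all 6 libraries and at 13.74 without Control replicate 2, and Il1f6 moved from 9.11 to 12.95. The mucosal chemokine Cxcl17 was at 0.0702, 0 and 0.0745 in Control and 8.58, 10.4 and 10.3 in HN (7.58 ± 0.57), and Fcrls, an Fc receptor-like gene of mouse macrophages, at 0.0468, 0.161 and 0.0993 and 16.8, 12.5 and 15.96 (7.17 ± 0.36). Serpina10, an inhibitor of clotting factors, was at 0.187, 0.403 and 0.434 and 29.1, 30.2 and 30.2 (6.45 ± 0.29).

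Gm6300, Gm27924, Pvalb, Cyp2d12, Slco1a1, Gm50241, Akr1c18, Gm15441 and Dnase1 were, in this order, among the 10 largest falls by the same rule. Gm6300 (ENSMUSG00000104375, chr3:14363117-14377587), a predicted gene without a known role, was at 37.6, 33.6 and 71.4 scaled FPKM in Control and 0, 0.144 and 0.0903 in HN (-9.15 ± 0.69, adjusted p 6.33e-05; -9.91 without HN replicate 8). Slco1a1, a carrier of organic anions, was at 76.5, 48.5 and 139 and 0.750, 2.34 and 2.83 (-5.45 ± 0.64), and Akr1c18, a steroid-reducing enzyme, at 21.3, 23.4 and 32.8 and 0.586, 0.490 and 1.11 (-5.11 ± 0.36). Dnase1, the secreted nuclease of kidney, was at 109.7, 121 and 93.6 and 4.42, 4.83 and 3.28 (-4.66 ± 0.19). In these 4 genes no HN mouse reached the lowest Control mouse. Cyp2d12, a cytochrome of drug metabolism, was at 28.7, 21.8 and 19.8 and 0.690, 0.643 and 0.230 (-5.47 ± 0.43).

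Some of these falls share their sequence with a neighbour or rest on single libraries. All 60 exon bases of Gm27924 lie within Cyp2d12 on the same strand, and Gm27924 was at 35.0, 0.0921 and 26.9 scaled FPKM in Control, so that replicate 4 lay far under its groupmates. Its call was lost in limma on the deposited FPKM (-3.14), and its log2 difference moved from -6.75 to -6.13 without Control replicate 2. Gm50241 shares all of its 2786 exon bases with Chtf8 on the same strand and was at 0.445, 35.5 and 0.422 in Control. Without Control replicate 4 its log2 difference went from -5.16 to -0.36 and it was no longer called. Its call was also lost without HN replicate 4 (-5.21), 8 (-5.29) or 12 (-5.00), in DESeq2 (which gave it no adjusted p), in limma on the deposited FPKM (-1.48), without a filter (-5.17) and with all 9 libraries in the fit (-5.19). Gm15441, at 23.6, 5.20 and 6.07 in Control and 0.560, 0.364 and 0.238 in HN (-4.88 ± 0.72; -3.83 without Control replicate 2), overlaps Txnip on the opposite strand over 36.2% of its exon bases.

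Promoter windows show short sequence motifs in some of the genes that moved together. RefSeq gives windows of 300 bases on GRCm38.p6, from 250 bases before to 50 bases after a start site, and 10635 tested genes had 13528 such windows. The motifs searched, on both strands, were AP-1 (TGANTCA), NF-kB (GGAATTTCC) and the HNF4 core (CAAAGTCC). AP-1 factors are stress-induced activators, NF-kB drives inflammatory genes, and HNF4 factors act in differentiated tubule cells. AP-1 was in 7.89% of the windows of genes that rose, 5.76% of those that fell and 5.42% of those of all tested genes. NF-kB was in 0.736, 0.433 and 0.362% of them. The HNF4 core was in 1.65, 2.60 and 1.43% of them. In genes that were not called the shares of AP-1, NF-kB and the HNF4 core were 4.48, 0.215 and 1.04%. Over all 32851 windows, of tested and other genes, they were 7.81, 0.317 and 1.42%, so that AP-1 was about as frequent there as in genes that rose. These shares are a description without a test, and a match does not show that a factor binds.

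A pair of windows of genes that rose and 1 window of a gene that fell are printed 5′ to 3′ with motif matches in capitals, because they hold a match and belong to genes with large changes. All are on the plus strand of GRCm38.p6 as RefSeq gives them. Mmp7 (chr9:7691840-7692139, 1 of its 2 windows) has AP-1 from base -63 relative to the start, and Havcr1 (chr11:46750918-46751217, 1 of its 3 windows) has AP-1 from base 10. The Havcr1 match thus lies after the start, in transcribed sequence, and overlaps an ATG. Slc34a1 (chr13:55399398-55399697) has an HNF4 core from base -7.
Mmp7: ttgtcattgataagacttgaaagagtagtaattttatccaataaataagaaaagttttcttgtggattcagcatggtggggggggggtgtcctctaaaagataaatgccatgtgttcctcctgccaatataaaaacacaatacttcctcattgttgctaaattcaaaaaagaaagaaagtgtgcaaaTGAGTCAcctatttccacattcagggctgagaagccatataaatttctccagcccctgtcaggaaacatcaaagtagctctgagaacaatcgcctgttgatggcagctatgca
Havcr1: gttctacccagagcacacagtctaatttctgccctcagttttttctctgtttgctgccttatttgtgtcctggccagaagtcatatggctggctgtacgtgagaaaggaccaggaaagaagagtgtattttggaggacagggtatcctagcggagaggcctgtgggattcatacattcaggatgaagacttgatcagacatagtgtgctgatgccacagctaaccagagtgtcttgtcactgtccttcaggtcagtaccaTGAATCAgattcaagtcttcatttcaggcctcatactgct
Slc34a1: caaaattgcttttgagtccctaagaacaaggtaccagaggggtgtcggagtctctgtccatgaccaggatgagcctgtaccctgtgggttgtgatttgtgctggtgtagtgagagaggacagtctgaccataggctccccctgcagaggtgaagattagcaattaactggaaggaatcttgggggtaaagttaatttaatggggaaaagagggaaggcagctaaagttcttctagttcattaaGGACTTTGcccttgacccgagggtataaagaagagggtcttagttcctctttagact
In the windows of C3, Lcn2, Timp1, Pck1, Slc22a12, Ehhadh, Acadm and Kap none of the 3 motifs was matched.

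The convoluted part of the proximal tubule, where most filtered solutes are taken back, was lower in nearly every marker: 20 of 21 members fell and 1 rose, with a median of -1.35; with total counts alone 14 fell. Slc34a1 (ENSMUSG00000021490, chr13:55398187-55415592), the main sodium-phosphate cotransporter, was at 781, 825 and 918 scaled FPKM in Control and 180.4, 176 and 177 in HN. Slc5a2, the glucose carrier SGLT2, was at 110.0, 102 and 101 and 33.5, 24.5 and 27.6. Lrp2 (megalin), which binds filtered proteins for uptake, was at 91.6, 103 and 121 and 31.4, 26.3 and 29.7. All HN mice lay well under all Control mice, with log2 differences of -2.22 ± 0.09, -1.85 ± 0.12 and -1.83 ± 0.13 and adjusted p of 1.02e-05, 3.99e-05 and 4.6e-05 in edgeR. Cubn (cubilin), the partner of megalin, fell by the same order (-1.68 ± 0.16), as did the second phosphate carrier Slc34a3 (-2.67 ± 0.16), the neutral amino acid carrier Slc6a19 (-1.97), the dicarboxylate carrier Slc13a3 (-2.06) and the sodium-proton exchanger Slc9a3 (-1.29). The exception was the sulfate carrier Slc13a1, at 46.7, 48.6 and 41.4 in Control and 79.5, 84.98 and 77.4 in HN (0.85 ± 0.09).

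In the straight part of the proximal tubule 13 of 14 members fell, with a median of -2.06. Slc22a7, an organic anion carrier of male kidney, was at 74.6, 81.1 and 145 scaled FPKM in Control and 1.78, 6.77 and 4.23 in HN (-4.53 ± 0.54). Cyp7b1, a steroid hydroxylase, was at 123, 129 and 158 and 13.4, 20.2 and 13.2 (-3.11 ± 0.20), and the amino acid carrier Slc7a13 at 379.7, 413 and 511 and 54.8, 62.1 and 71.0 (-2.77 ± 0.15). Kap, an androgen-regulated protein and a hallmark of the male mouse kidney, fell by 3.33 on the log2 scale, and Slc22a19 by 3.48. The glucose carrier Slc5a1 was not called (-0.17).

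Carriers of organic ions and drugs fell in 12 of 17 cases and rose in 3. The basolateral anion carriers Slc22a6 (OAT1), at 239, 199 and 257 scaled FPKM in Control and 44.1, 55.7 and 43.1 in HN, and Slc22a8 (OAT3), at 73.4, 87.1 and 72.5 and 26.2, 23.8 and 22.1, both fell (-2.26 ± 0.14 and -1.67 ± 0.11). The cation carriers Slc22a2, at 98.8, 88.6 and 129 and 28.8, 33.2 and 29.6, and Slc47a1, at 152, 149.6 and 194 and 59.4, 62.6 and 62.3, did so too (-1.77 ± 0.15 and -1.40 ± 0.11). The groups did not overlap in these 4 genes. The export pumps Abcc3 (0.398, 0.311 and 0.323 in Control, 2.85, 3.07 and 3.28 in HN, 3.16 ± 0.16) and Abcc4 (0.995) rose, as did Slco2b1 (0.74). Abcb1a (0.43) and Abcb1b (0.42) were not called.

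Carriers of urate, the metabolite that names the disease, were lower in 9 of 11 members, with a median of -1.77. Slc22a12 (URAT1), which takes urate back from the tubular fluid, was at 787, 592 and 714 scaled FPKM in Control and 102, 143 and 99.3 in HN. Abcg2, a urate exporter, was at 57.96, 54.8 and 56.0 and 24.0, 26.5 and 23.3. Slc2a9 (GLUT9) was at 2.78, 3.23 and 2.68 and 1.97, 1.90 and 2.59. Slc22a12 fell to between 99.3 and 143 in every HN mouse (-2.58 ± 0.18, adjusted p 4.86e-05), Abcg2 fell too (-1.17 ± 0.08, adjusted p 3.99e-05), and Slc2a9 was not called (-0.40 ± 0.16, adjusted p 0.0663) although its groups did not overlap. Genes for both reabsorption and secretion were thus among the falls: Slc17a1 (-1.77), Slc17a3 (-2.22), Slc22a13 (-1.86) and the scaffold Pdzk1 (-1.69). Abcc4, at 6.84, 5.88 and 5.14 in Control and 12.1, 12.5 and 10.5 in HN, was the member that rose. Slc22a12 overlaps Nrxn2 on the opposite strand over 30.1% of its exon bases.

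The enzymes that make and recycle purines did not follow the carriers. Xdh (xanthine dehydrogenase), which forms urate, was at 4.72, 5.16 and 3.69 scaled FPKM in Control and 5.91, 8.45 and 4.65 in HN, and Aprt, which recycles adenine, was at 22.7, 25.8 and 22.6 and 23.0, 21.6 and 22.004. The groups overlapped in both and neither was called (0.51 ± 0.23 and -0.07 ± 0.09); without HN replicate 12, Xdh was called at 0.69, and with total counts alone at 0.99. Gda (guanine deaminase) rose, from 2.70, 2.14 and 2.82 to 7.91, 6.15 and 4.84 (1.33 ± 0.19), and Adk (adenosine kinase) fell, from 18.6, 19.0 and 16.2 to 8.68, 7.39 and 8.06 (-1.13 ± 0.10). Of 17 members 5 rose and 2 fell, the rises including Impdh1 (not called with all 9 libraries in the fit), Impdh2 and Atic of nucleotide synthesis, and with total counts alone 7 rose and 1 fell.

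**Figure D2:**
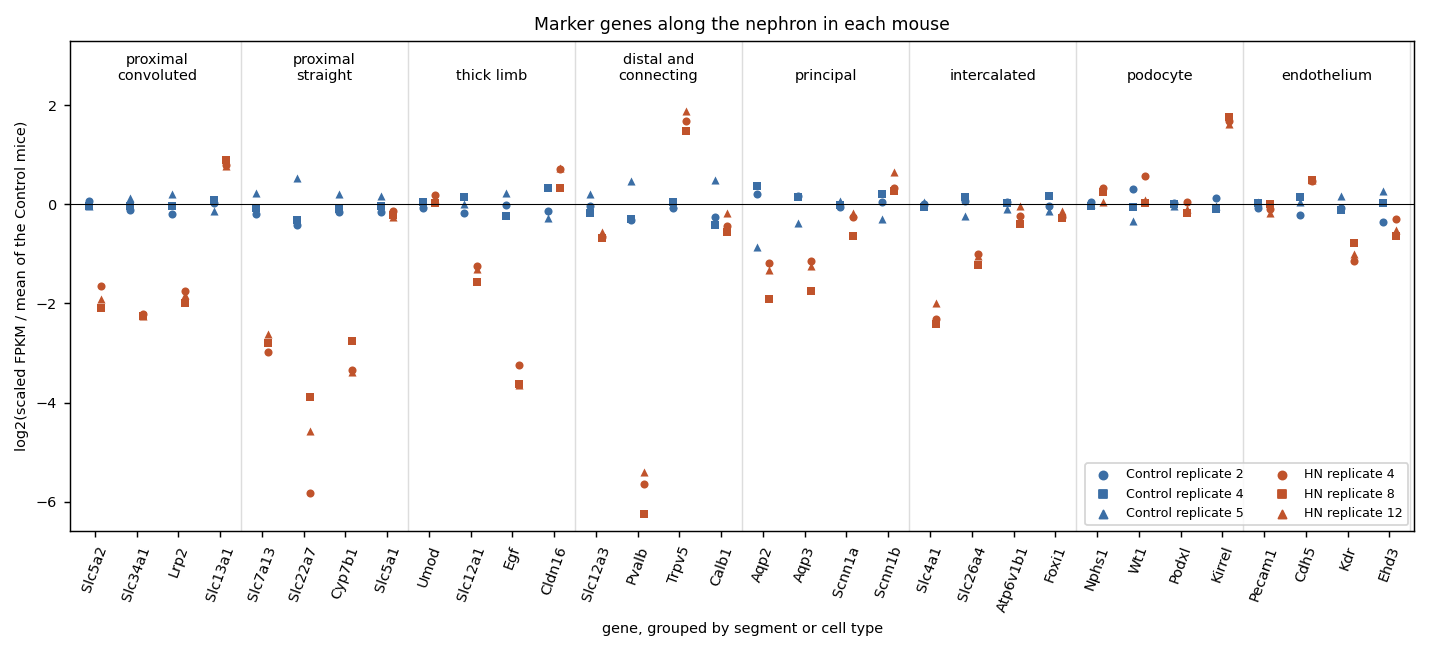
Level of 32 marker genes of nephron segments and cell types in each mouse, as the log2 ratio of its scaled FPKM to the Control mean, with 1 point per mouse. Proximal markers such as Slc34a1 lie under 0 in all 3 HN mice, Umod and Podxl lie near it, and with total counts alone Umod is higher in HN.

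Further along the nephron the picture was mixed within each segment. In the thick ascending limb, which dilutes the urine by salt uptake, 9 of 16 members fell and 1 rose, and with total counts alone 5 fell and 3 rose. Slc12a1 (NKCC2), the target of loop diuretics, was at 210.4, 265 and 240.1 scaled FPKM in Control and 101, 80.9 and 96.1 in HN (-1.34 ± 0.12), and the growth factor Egf was at 127, 108 and 149.9 and 13.6, 10.4 and 10.3 (-3.46 ± 0.17). Umod (uromodulin), the most abundant marker of the segment, was not called (0.13 ± 0.09), and with total counts alone it was called higher (0.63). The levels of Umod overlapped between the groups, and its difference from Slc12a1 and Egf was not tested. The potassium channel Kcnj1, at 78.5, 86.9 and 85.7 and 47.9, 36.4 and 50.3, fell (-0.88 ± 0.13; -0.38 and not called with total counts alone). Cldn16, a paracellular channel for magnesium, was called higher with overlapping groups (6.997, 9.67 and 6.38 and 12.6, 9.60 and 12.7, 0.62 ± 0.20), and its call was lost without Control replicate 2 (0.56), Control replicate 5 (0.50), HN replicate 4 (0.56) or HN replicate 12 (0.55), and without a filter on level.

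In the distal convoluted and connecting tubule 9 of 16 members fell and 2 rose, and with total counts alone 5 fell and 5 rose. Pvalb, a calcium-binding protein of the early distal tubule, was at 12.9, 13.1 and 22.1 scaled FPKM in Control and 0.319, 0.211 and 0.378 in HN (-5.67 ± 0.34, adjusted p 2.61e-05). The thiazide-sensitive carrier Slc12a3, at 56.1, 50.7 and 66.2 and 36.6, 36.0 and 39.2, fell less (-0.61 ± 0.11), and its call was lost without Control replicate 5 (-0.49), without HN replicate 8 (-0.58) with upper-quartile factors (-0.54), with a mean FPKM of 1 or more (-0.58) and with total counts alone (-0.11). The calcium channel Trpv5 rose, from 5.91, 6.40 and 6.25 to 19.8, 17.4 and 22.8 (1.72 ± 0.12). Its binding partner Calb1 was at 68.9, 60.9 and 116 and 60.5, 55.3 and 72.8 and was not called (-0.35 ± 0.24), with Control replicate 5 the highest mouse. Trpm6, the magnesium channel, was called higher (1.32, 1.74 and 2.56 and 3.28, 3.75 and 2.69, 0.82 ± 0.25) but not without Control replicate 2 (0.62), Control replicate 4 (0.77), HN replicate 4 (0.81) or HN replicate 8 (0.70).

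Principal cells of the collecting duct, where vasopressin and aldosterone act, showed falls of water channels beside sodium channel subunits that were not called. Aqp2, the vasopressin-regulated water channel, was at 318, 355 and 151 scaled FPKM in Control and 121, 72.9 and 109 in HN (-1.42 ± 0.34, adjusted p 0.0109). Aqp3 was at 55.8, 55.6 and 38.5 and 22.5, 14.9 and 21.03 (-1.34 ± 0.20), and Aqp4 at 7.42, 7.33 and 6.54 and 1.28, 1.31 and 2.38 (-2.07 ± 0.26). Control replicate 5 had the lowest Control level of these 3 genes and still lay above every HN mouse; in limma on the deposited FPKM the call of Aqp2 was lost (-0.88). The sodium channel subunits Scnn1a (-0.32 ± 0.13), Scnn1b (0.45 ± 0.16) and Scnn1g (0.20 ± 0.11) and the vasopressin receptor Avpr2 (-0.40 ± 0.15), whose exons overlap Arhgap4 on the opposite strand over 81.3% of their bases, were not called. With total counts alone Scnn1b (0.94) and Scnn1g (0.69) were called higher, and the median of the 16 members changed from -0.36 to 0.14.

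Intercalated cells, which secrete acid or base, had 9 of 15 tested members lower and 1 higher, and 3 lower and 2 higher with total counts alone. The anion exchanger Slc4a1, which red blood cells express too, was at 9.66, 9.29 and 10.1 scaled FPKM in Control and 1.96, 1.80 and 2.44 in HN (-2.20 ± 0.13), and the other tested blood and muscle markers were lower in HN as well (median of the list -2.84). Pendrin, Slc26a4, was at 22.4, 23.8 and 18.3 and 10.7, 9.14 and 10.4 (-1.07 ± 0.12; -0.58 and not called with total counts alone). The proton pump subunit Atp6v1b1 was at 18.4, 18.1 and 16.6 and 15.1, 13.4 and 17.3, and the transcription factor Foxi1, which defines these cells, at 11.1, 12.7 and 10.3 and 9.50, 9.34 and 10.3. Both overlapped between the groups and were not called (-0.19 ± 0.11 and -0.20 ± 0.11). Kit was called higher at 0.59 ± 0.09, from 1.99, 1.91 and 1.95 to 2.86, 2.71 and 3.09, but not without Control replicate 4 (0.58), without HN replicate 12 (0.53) in DESeq2 (0.58) or with all 9 libraries in the fit (0.56).

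Genes of urine concentration fell in 7 of 12 cases and rose in 1. Aqp1, the water channel of the proximal tubule and thin limb, was at 353, 442 and 377 scaled FPKM in Control and 139.7, 124 and 134 in HN (-1.54 ± 0.11). Slc6a12, a carrier of the osmolyte betaine, was at 1.37, 2.35 and 0.782 and 0.345, 0.262 and 0.230 (-2.40 ± 0.43), and the osmolyte genes Akr1b3 (-1.28) and Slc5a3 (-1.17) fell as well, and were not called with total counts alone (-0.80 and -0.68). Their regulator Nfat5 was called higher (3.86, 5.42 and 6.01 and 7.80, 8.04 and 7.80, 0.65 ± 0.15), but not without Control replicate 2 (0.50). The urea carrier Slc14a2 was at 6.39, 8.86 and 11.7 and 8.41, 9.89 and 7.94 (-0.01 ± 0.21).

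In a list of transcription factors and cadherins, not all of them markers of the tubule, 6 of 20 members rose and 5 fell. With total counts alone 10 rose and 2 fell. Hnf4a, the factor of mature proximal tubule, was at 220.4, 205 and 196 scaled FPKM in Control and 71.4, 69.9 and 75.3 in HN (-1.50 ± 0.08). Factors that mark the whole tubule changed by less than 1.5-fold: Pax8 was at 13.2, 13.8 and 11.9 and 20.7, 14.3 and 16.4 (0.42 ± 0.14), Pax2 at 10.03, 9.99 and 7.59 and 7.46, 7.94 and 7.59 (-0.24 ± 0.12) and the kidney cadherin Cdh16 at 191, 213 and 205 and 164, 152 and 162 (-0.32 ± 0.08). Pax8 was called higher with total counts alone (0.91). The members that rose were Cdh3, from 0.959, 1.24 and 1.18 to 11.4, 10.3 and 12.6 (3.37 ± 0.14), Cdh6 (2.57), Twist1 (1.80), Snai1 (1.43), Snai2 (1.14) and Zeb2 (1.43). Twist1, Snai1, Snai2 and Zeb2 are not tubule markers, and their cells of origin cannot be told in whole kidney. Cdh2 (-0.42) and Zeb1 (0.58; called in several alternatives, at 1.07 with total counts alone) were not called.

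Markers of podocytes, the filter cells of the glomerulus, rose in 7 of 14 cases and fell in 0, against 20.2% and 16.9% over all tested genes. With total counts alone 10 rose. Nphs1 (nephrin) was at 4.80, 4.56 and 4.68 scaled FPKM in Control and 5.89, 5.52 and 4.84 in HN, Podxl at 39.5, 39.0 and 37.6 and 39.9, 34.5 and 36.0, and the factor Wt1 at 1.28, 0.990 and 0.807 and 1.52, 1.05 and 1.09. None of the 3 was called (0.24 ± 0.09, -0.05 ± 0.08 and 0.26 ± 0.23); with total counts alone Nphs1 (0.73) and Wt1 (0.75) were called higher. The largest rise was that of Kirrel, from 2.41, 2.07 and 2.16 to 7.10, 7.48 and 6.79 (1.71 ± 0.09), followed by Nes (1.44) and Tcf21 (1.23), which other kidney cells express too.

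Of 10 genes of klotho, vitamin D and calcium 5 fell and 2 rose, and with total counts alone 3 fell and 3 rose. Kl (klotho), the co-receptor for a phosphate-regulating hormone, was at 58.4, 66.1 and 97.0 scaled FPKM in Control and 22.5, 23.4 and 26.1 in HN (-1.60 ± 0.19, adjusted p 0.000448). Cyp24a1, which breaks down active vitamin D, was at 2.001, 2.59 and 8.004 and 14.9, 27.1 and 19.4 (2.31 ± 0.54; 3.18 without Control replicate 5). Cyp27b1, which makes it, was at 33.8, 15.4 and 6.04 and 7.97, 7.02 and 4.72. Cyp27b1 differed widely among Control mice and was not called (-1.47 ± 0.57; -0.68 without Control replicate 2), but was called without Control replicate 5 (-1.88). The receptor genes Vdr (-0.90; -0.40 and not called with total counts alone) and Pth1r (-1.48) fell.

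In the renin-angiotensin system Ace, which makes the active hormone, fell, from 37.5, 40.5 and 60.7 scaled FPKM in Control to 10.5, 12.4 and 12.7 in HN (-1.94 ± 0.19). Ren1 (renin) was at 43.1, 45.6 and 29.0 and 32.1, 32.1 and 24.8 and was not called (-0.38 ± 0.19). Agt (angiotensinogen), at 25.1, 32.2 and 20.6 and 35.0, 37.9 and 33.4, was under the fold of 1.5 (0.47 ± 0.16), was called without Control replicate 4 (0.67) and rose with total counts alone (0.96). Of 9 tested members 3 fell, with a median of -0.38 that became 0.12 with total counts alone.

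Oxygen-sensing genes fell in part. Epo (erythropoietin) was at 3.31, 3.15 and 0 scaled FPKM in Control and 3.28, 0.0423 and 3.56 in HN, so that 1 mouse of each group had almost none, and it was not called (0.10 ± 1.54). Epas1, which drives Epo, was at 26.6, 29.5 and 27.8 and 25.2, 20.9 and 24.0 (-0.23 ± 0.09). Vegfa, the vessel growth factor, fell from 34.4, 34.5 and 35.6 to 15.3, 15.9 and 16.9 (-1.09 ± 0.07), and Car9 from 3.19, 4.93 and 2.31 to 0.802, 0.930 and 0.961 (-1.92 ± 0.30). In all, 6 of 11 members fell.

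Endothelial markers changed little as a group, with 2 of 17 tested members higher and 2 lower (median -0.11, and 0.38 with 5 higher and 0 lower with total counts alone). Pecam1 was at 10.3, 11.1 and 11.1 scaled FPKM in Control and 10.1, 10.9 and 9.66 in HN (-0.06 ± 0.08), and Cdh5 at 7.35, 9.49 and 8.80 and 11.8, 12.05 and 12.01 (0.51 ± 0.10), which was called without Control replicate 4 (0.60) and with total counts alone (1.002). The growth factor receptor Kdr fell, from 9.69, 9.44 and 11.5 to 4.65, 5.97 and 5.12 (-0.94 ± 0.12; -0.44 and not called with total counts alone). Ehd3 of the glomerular endothelium was at 5.14, 6.71 and 7.98 and 5.41, 4.22 and 4.63 (-0.45 ± 0.17; called at -0.60 without Control replicate 2). The adhesion molecule Selp, which captures leukocytes, rose from 0.0351, 0.0460 and 0.0248 to 1.41, 0.693 and 0.805 (4.63 ± 0.43). Selp reached the level needed for testing only through HN.

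Markers of myofibroblasts and pericytes were higher in 12 of 16 members and lower in 1. Acta2 (smooth muscle actin) was at 18.6, 17.95 and 20.6 scaled FPKM in Control and 54.4, 45.8 and 45.9 in HN (1.37 ± 0.10), and the receptors Pdgfrb, at 11.4, 10.96 and 6.15 and 21.7, 23.7 and 20.99, and Pdgfra, at 5.34, 5.77 and 4.42 and 15.5, 14.1 and 11.7, rose too, without overlap (1.24 ± 0.23 and 1.43 ± 0.14). Postn was at 0.351, 0.184 and 0.397 and 1.66, 1.80 and 1.70 (2.48 ± 0.28), and Thy1 had the largest rise, from 0.749, 1.02 and 0.534 to 13.1, 12.1 and 15.1 (4.12 ± 0.25). Smooth muscle genes such as Myh11 (-0.11) and Cnn1 (0.35; 0.85 and called with total counts alone) were not called. Meox1 fell, from 3.23, 3.82 and 2.73 to 1.79, 2.14 and 2.32 (-0.62 ± 0.19), a call that was lost without Control replicate 2 (-0.62), Control replicate 4 (-0.48), HN replicate 4 (-0.52) or HN replicate 8 (-0.64), and with upper-quartile factors (-0.55) or total counts alone (-0.13).

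Of 21 collagen genes 19 rose and 2 fell, with a median of 1.88. Col1a1 (ENSMUSG00000001506, chr11:94936224-94953042), of the main fibre of scar tissue, was at 3.43, 3.05 and 3.66 scaled FPKM in Control and 65.3, 71.2 and 62.8 in HN. Its partner Col1a2 was at 3.46, 3.79 and 4.84 and 45.6, 47.8 and 42.4, and Col3a1 at 4.34, 3.98 and 5.001 and 83.4, 89.1 and 78.9. Mice of a group differed little in these genes and the groups lay far apart (4.32 ± 0.10, 3.51 ± 0.14 and 4.26 ± 0.12). Col12a1 had the largest rise (0.608, 0.702 and 0.918 to 19.0, 20.6 and 19.1, 4.74 ± 0.17). The basement membrane chains split: Col4a1 rose, from 34.8, 38.6 and 38.6 to 123, 120.4 and 91.1 (1.60 ± 0.13), whereas Col4a3 of the mature glomerular membrane fell, from 29.2, 26.1 and 26.3 to 15.4, 16.9 and 15.6 (-0.74 ± 0.08), as did Col4a4 (-0.60). With total counts alone neither Col4a3 (-0.25) nor Col4a4 (-0.11) was called, and Col4a4 also lost its call with upper-quartile factors (-0.54), a mean FPKM of 1 or more (-0.58), or without Control replicate 5 (-0.57) or HN replicate 4 (-0.56).

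Glycoproteins and crosslinking enzymes of the matrix rose in 18 of 21 cases. Fn1 (fibronectin) was at 1.72, 1.86 and 2.49 scaled FPKM in Control and 36.0, 33.5 and 34.5 in HN (4.11 ± 0.15), Tnc (tenascin) at 1.45, 1.69 and 1.40 and 23.7, 22.2 and 18.7 (3.85 ± 0.13) and the crosslinker Lox at 1.90, 2.58 and 1.501 and 20.7, 18.02 and 12.3 (3.12 ± 0.27). Thbs2 (3.28), Fbn1 (2.85) and Sparc (2.47) rose too. Lama1, a laminin chain of tubular membranes, was the 1 member that fell (-0.62 ± 0.12), and its call was lost without Control replicate 2 (-0.57), without HN replicate 12 (-0.54) with upper-quartile factors (-0.56) and with total counts alone (-0.13).

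Proteases and their inhibitors rose in 15 of 19 cases and fell in 3. Mmp7 (ENSMUSG00000018623, chr9:7692090-7699585), which cuts matrix and cadherins, was at 0.0468, 0 and 0.0496 scaled FPKM in Control (4, 0 and 4 counts) and 33.7, 32.03 and 23.1 in HN (9.67 ± 0.45, adjusted p 1.2e-05). Mmp2 was at 0.433, 0.771 and 1.04 and 21.6, 18.6 and 19.6 (4.75 ± 0.30). Of the inhibitors, Timp1 rose, from 1.58, 1.57 and 0.707 to 80.2, 67.5 and 60.3 (5.75 ± 0.31), and Timp3, the abundant inhibitor of normal kidney, fell, from 319, 260.1 and 329 to 110.1, 124 and 102 (-1.41 ± 0.12). The brush-border proteases Mep1a (-1.78) and Mep1b (58.3, 75.8 and 98.1 to 9.59, 11.4 and 13.9, -2.71 ± 0.22) fell.

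Of the genes of TGF-beta and BMP signalling, 12 of 23 rose and 1 fell, and 17 rose with total counts alone. The ligand Tgfb1 was at 3.76, 3.90 and 2.52 scaled FPKM in Control and 13.8, 14.1 and 12.9 in HN (2.02 ± 0.17), and the receptors Tgfbr1, at 12.3, 12.4 and 11.1 and 29.0, 22.7 and 23.6, and Tgfbr2, at 13.3, 12.4 and 12.1 and 33.0, 33.6 and 31.1, rose as well (1.10 ± 0.11 and 1.39 ± 0.07). The signal carrier Smad3 rose less (10.1, 8.47 and 8.93 to 15.8, 13.9 and 14.1, 0.70 ± 0.09), and the inhibitor Smad7, at 6.39, 6.92 and 4.03 and 6.90, 7.76 and 6.77, was not called (0.33 ± 0.20) but was with total counts alone (0.81). Ltbp2, a matrix protein of this family, had the largest rise, from 0.0117, 0.0115 and 0.0124 to 8.68, 6.95 and 8.14 (9.74 ± 0.22; 4, 8 and 4 counts in Control). Inhba, which encodes an activin chain, followed (5.31). Bmp7, which maintains the tubule, fell, from 9.98, 9.07 and 11.6 to 5.27, 4.30 and 5.99 (-0.95 ± 0.15; -0.45 and not called with total counts alone).

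**Figure D3:**
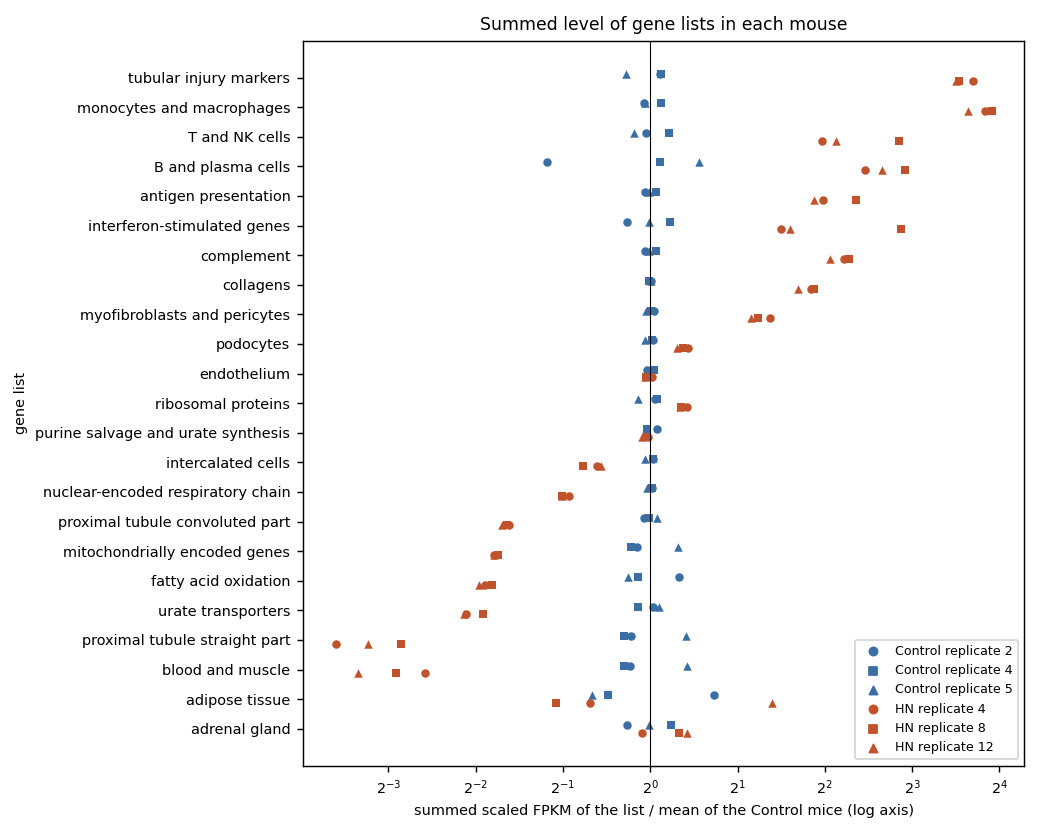
Summed scaled FPKM of 23 gene lists in each mouse relative to the Control mean, on a log2 axis, with 1 point per mouse. Macrophage genes sum to between 1110 and 1334 in HN against 84.3 to 96.7 in Control, and interferon genes are highest in HN replicate 8.

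Every immune list held genes that rose, but in neutrophils these were only 2 of 5 tested members. The largest median was in monocytes and macrophages. Of 20 tested genes of monocytes and macrophages 19 rose, with a median of 3.80. Their summed level was 84.3, 96.7 and 84.8 scaled FPKM in Control and 1265, 1334 and 1109.7 in HN, with Lyz2 the most abundant. Lyz2 (lysozyme) was at 17.9, 17.1 and 16.6 in Control and 509, 469 and 433 in HN. Adgre1 (F4/80) was at 1.52, 1.28 and 1.77 and 22.1, 21.9 and 18.7, and Cd68 of lysosomes at 1.66, 1.14 and 2.68 and 17.3, 22.9 and 17.7. Csf1r, the receptor that macrophages need to survive, rose less (6.58, 8.07 and 8.81 to 26.0, 23.7 and 23.6, 1.67 ± 0.12) than Lyz2 (4.80 ± 0.10), Adgre1 (3.80 ± 0.14) or Cd68 (3.42 ± 0.32). The integrin Itgam (5.51 ± 0.39), 68.7% of whose exon bases are shared with Gm49368, the mannose receptor Mrc1 (0.608, 0.679 and 0.571 to 12.8, 9.63 and 9.72, 4.13 ± 0.15), Trem2 (5.08) and Gpnmb (4.96) rose too. Cx3cr1, a receptor of resident macrophages, was at 1.71, 1.73 and 1.32 and 1.72, 2.72 and 2.52 and was not called (0.58 ± 0.21), but was called without HN replicate 4 (0.75), with upper-quartile factors (0.64), in limma on the deposited FPKM (0.67) and with total counts alone (1.07).

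Dendritic cell genes rose in 5 of 7 tested members. Itgax was at 0.328, 0.391 and 0.385 scaled FPKM in Control and 4.72, 6.93 and 4.61 in HN (3.89 ± 0.20), and the lymph node homing receptor Ccr7 at 0.0819, 0.0806 and 0.0993 and 2.23, 1.56 and 1.34 (4.24 ± 0.31). Flt3 (0.152, 0.0575 and 0.0496 and 0.474, 0.567 and 0.394) and Xcr1 (0.0702, 0.196 and 0.186 and 0.50, 0.981 and 0.460) were under the level needed for testing.

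Lymphocyte genes were present at low levels, where a gene near 0 in Control reaches the level needed for testing only through HN. Of 19 genes of T and NK cells 13 were tested and 12 rose; without a filter on level 15 of 19 rose. Cd3e of all T cells was at 0.0936, 0.173 and 0.0869 scaled FPKM in Control and 0.647, 1.12 and 0.698 in HN (2.79 ± 0.39), Cd4 at 0.164, 0.265 and 0.186 and 1.79, 2.54 and 1.95 (3.36 ± 0.27) and Cd8a at 0.339, 0.368 and 0.571 and 1.17, 2.97 and 1.58 (2.18 ± 0.40). HN replicate 8 was the highest mouse in each of them. Nkg7 of killer cells was at 1.39, 0.829 and 0.558 and 2.82, 4.15 and 3.04 (1.85 ± 0.38), and the cytokine receptor Il7r rose from 0.0702, 0.184 and 0.0496 to 1.16, 1.44 and 0.911 (3.54 ± 0.49; 4.24 without Control replicate 4). Of 18 genes of B and plasma cells 10 were tested and 9 rose (11 of 18 without a filter). The B cell markers Ms4a1 (0.0351, 0.0115 and 0.0372 and 0.0345, 0.0761 and 0.0575) and Cd79a (0.0702, 0.115 and 0.248 and 0.509, 0.550 and 0.567) stayed under the level needed for testing. Jchain of antibody-secreting cells, at 1.81, 3.83 and 5.66 and 10.7, 22.4 and 22.03, and the antibody gene Ighg2c, at 0.679, 2.60 and 1.18 and 12.3, 18.8 and 9.70, rose (2.31 ± 0.45 and 3.21 ± 0.51; Ighg2c 3.90 without Control replicate 4).

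Neutrophil genes were mostly too low to test, with 5 of 12 tested and 2 higher. S100a8 was at 2.77, 4.95 and 1.58 scaled FPKM in Control and 8.79, 4.54 and 4.69 in HN, and S100a9 at 3.62, 7.95 and 3.04 and 13.9, 6.36 and 8.24. Both overlapped between the groups (0.97 ± 0.46 and 0.98 ± 0.45) and were called higher without Control replicate 4 (1.48 and 1.54) or with total counts alone (1.44 and 1.45). The receptors Csf3r (0.339, 0.679 and 0.372 to 3.86, 3.28 and 3.19, 2.92 ± 0.30) and Cxcr2 (0.117, 0.265 and 0.0745 to 1.27, 0.803 and 0.846, 2.65 ± 0.48; 3.29 without Control replicate 4) rose.

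Chemokines rose in 15 of 20 cases and fell in 2, with a median of 3.04. Ccl2, which recruits monocytes, was at 1.08, 0.391 and 0.869 scaled FPKM in Control and 26.7, 19.1 and 12.03 in HN (4.63 ± 0.44), and Ccl8 at 0.328, 0 and 0.459 and 13.7, 17.6 and 13.9 (5.86 ± 0.76; 6.51 without Control replicate 5). Cxcl1, which recruits neutrophils, was at 0.761, 0.932 and 0.447 and 17.8, 9.32 and 12.7 (4.23 ± 0.35). The lymphocyte chemokines Ccl5, at 0.784, 1.48 and 1.08 and 7.50, 11.3 and 6.78, and Cxcl10, at 0.679, 1.62 and 0.931 and 6.96, 14.2 and 7.13, rose as well (2.94 ± 0.32 and 3.14 ± 0.42), both with HN replicate 8 highest. Ccl28 fell, from 8.19, 6.27 and 14.6 to 2.09, 3.80 and 4.50 (-1.46 ± 0.38; -0.94 and not called with total counts alone), as did Cxcl12 (-0.68; not called with total counts alone, -0.18, or all 9 libraries in the fit, -0.70).

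Of 18 tested cytokines and receptors 15 rose and 1 fell. Il1b was at 0.842, 1.24 and 1.22 scaled FPKM in Control and 5.08, 7.42 and 6.54 in HN (2.54 ± 0.23), and Tnf at 0.176, 0.173 and 0.0372 and 1.25, 1.85 and 1.36 (3.57 ± 0.55). The antagonist Il1rn had a larger rise than either, from 0.0234, 0.0345 and 0.0248 to 2.25, 3.90 and 2.57 (6.93 ± 0.33), though the difference between genes was not tested. Il6 had 0, 0 and 0 counts in Control and 112, 66 and 71 in HN, under the level needed for testing. The macrophage growth factors Csf1, at 1.80, 2.12 and 1.95 and 12.7, 10.4 and 9.59, and Il34, at 9.45, 8.49 and 9.05 and 30.4, 33.5 and 26.1, rose (2.50 ± 0.13 and 1.76 ± 0.11). Il15 fell, from 2.49, 3.25 and 3.36 to 1.75, 1.83 and 1.66 (-0.77 ± 0.17; -0.27 and not called with total counts alone).

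Complement genes rose in 16 of 19 tested cases. C3, the hub of the cascade, was at 2.78, 2.84 and 1.53 scaled FPKM in Control and 209, 186 and 173 in HN (6.33 ± 0.29), and C4b at 0.807, 1.39 and 0.794 and 17.98, 22.3 and 15.8 (4.24 ± 0.27). Cfb, an activating factor abundant in both groups, was at 114, 127 and 129.9 and 103, 109 and 103 and was not called (-0.22 ± 0.08). Cd55, which protects cells from complement, fell, from 2.80, 2.50 and 4.41 to 1.52, 1.51 and 1.49 (-1.07 ± 0.21; -0.57 and not called with total counts alone).

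All 15 genes of antigen presentation rose, with a median of 2.17. The class II chains H2-Aa, at 13.99, 18.1 and 18.5 scaled FPKM in Control and 123, 133 and 122 in HN, and H2-Ab1, at 22.7, 21.8 and 24.1 and 153, 186 and 145, and their chaperone Cd74, at 67.3, 77.6 and 74.1 and 639, 705 and 580.0, had log2 differences of 2.93 ± 0.13, 2.84 ± 0.12 and 3.16 ± 0.11. The class I chain H2-K1 (48.2, 53.8 and 55.6 to 150.4, 213 and 140.0, 1.70 ± 0.17) and B2m (1.72 ± 0.17) rose less. Interferon-stimulated genes rose in 17 of 20 cases, and HN replicate 8 stood apart from its groupmates. Isg15 was at 4.41, 6.28 and 4.79 in Control and 24.8, 128 and 33.5 in HN, Ifit1 at 2.05, 2.74 and 1.90 and 6.51, 30.1 and 9.82, and Ifit3 at 13.5, 18.7 and 17.7 and 32.1, 98.9 and 36.4. All HN mice lay above all Control mice in these 3 genes (3.61 ± 0.66, 2.82 ± 0.57 and 1.77 ± 0.44), and without HN replicate 8 they were still called at 2.52, 1.90 and 1.07; with all 9 libraries in the fit the calls of Ifit1 (2.79) and Ifit3 (1.74) were lost. The summed level of the list was 118, 166 and 141 in Control and 399.8, 1038 and 429.7 in HN.

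Of the kinases, transcription factors and inhibitors of JAK-STAT signalling, 8 of 14 tested members rose. Socs3, a feedback inhibitor, was at 2.12, 2.52 and 0.831 scaled FPKM in Control and 36.3, 29.2 and 25.3 in HN (4.07 ± 0.41), and Stat3 at 11.4, 11.2 and 6.50 and 22.6, 17.9 and 18.4 (1.04 ± 0.22). The kinases Jak1, at 24.3, 25.9 and 24.5 and 30.9, 29.6 and 26.9, and Jak2, at 9.78, 10.6 and 8.82 and 14.5, 13.9 and 11.4, stayed under the fold of 1.5 (0.25 ± 0.08 and 0.47 ± 0.12) and were called higher with total counts alone (0.74 and 0.95).

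Metabolic genes fell broadly. In the oxidation of fatty acids all 24 members fell with a median of -1.47. Acadm, an enzyme of mitochondrial fatty acid oxidation, was at 323, 284 and 303 scaled FPKM in Control and 47.0, 55.1 and 48.4 in HN (-2.57 ± 0.10, adjusted p 9.83e-06). The peroxisomal enzyme Ehhadh, at 641, 364 and 337 and 43.9, 74.4 and 41.4, fell as well (-3.05 ± 0.34). Ppara, the nuclear receptor that switches these genes on, was at 15.3, 17.9 and 18.3 and 9.56, 5.91 and 4.89 (-1.32 ± 0.24), and its coactivator Ppargc1a at 11.5, 13.4 and 14.2 and 7.27, 6.68 and 6.91 (-0.88 ± 0.09). Cpt1a, the gate to mitochondrial oxidation, fell less (67.1, 57.9 and 58.5 to 32.7, 33.4 and 28.9, -0.93 ± 0.10). With total counts alone Ppargc1a (-0.39) and Cpt1a (-0.44) were not called, and 17 of the 24 genes were.

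Cyp4a10 and Cyp4a14, which oxidize the far end of fatty acids, differed widely among Control mice, at 609, 225 and 148 and 567, 83.5 and 39.4 scaled FPKM, against 30.6, 32.6 and 21.1 and 13.8, 16.7 and 14.2 in HN (-3.52 ± 0.55 and -3.93 ± 0.98; -2.70 and -2.02 without Control replicate 2). Control replicate 2 was the highest mouse in both, as it was in Ehhadh.

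**Figure D4:**
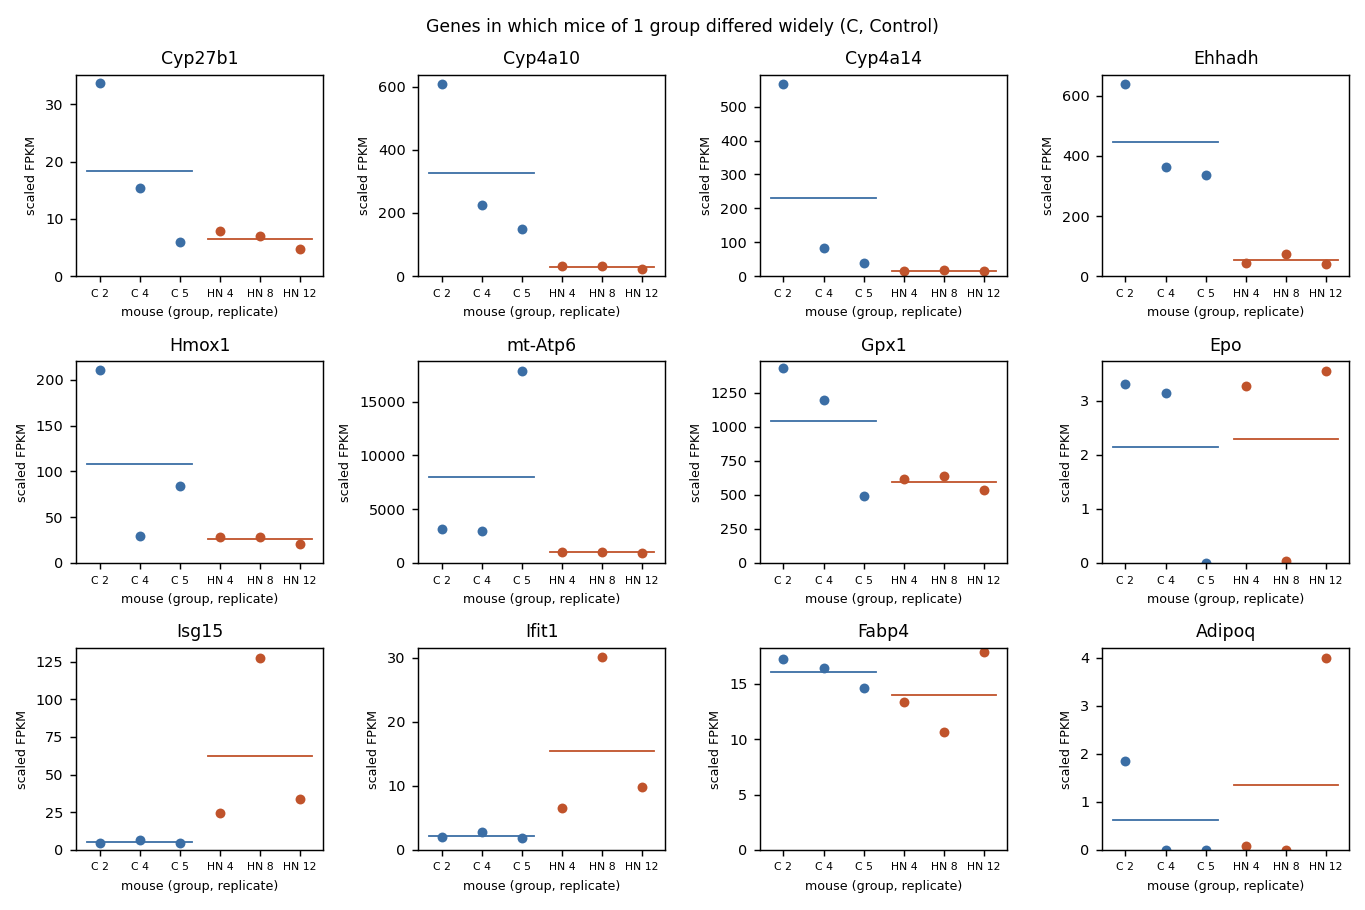
Scaled FPKM of 12 genes in each of the 6 mice, on linear axes that start at 0, with group means as lines. Control mice differ among themselves in Cyp27b1 (6.04 to 33.8), and HN replicate 8 stands above its groupmates in Isg15 and Ifit1.

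Genes of lipid uptake and storage fell in 10 of 19 tested cases and rose in 1. The fatty acid carrier Cd36 was at 132, 96.2 and 155 scaled FPKM in Control and 23.3, 27.9 and 29.0 in HN (-2.23 ± 0.19), and Lpl (-2.63) and Slc27a2 (-1.89) fell too. Acsm3, which activates medium-chain acids and shares 39.7% of its exon bases with Eri2 on the opposite strand, fell most (156, 141 and 305 to 10.7, 23.1 and 16.5, -3.55 ± 0.40). Apoe, a lipid carrier also made by macrophages, rose, from 56.7, 73.6 and 44.9 to 475, 300.5 and 353 (2.71 ± 0.24). Fabp4 was at 17.3, 16.4 and 14.6 and 13.3, 10.7 and 17.9 (-0.18 ± 0.19). Genes of lipid synthesis were split, with 4 of 21 members higher and 6 lower (10 and 2 with total counts alone). With TMM factors the share that rose was near the 20.2% over all tested genes. The enzymes of cholesterol synthesis Hmgcs1, at 105, 118 and 126 and 52.2, 56.4 and 58.7 (-1.03 ± 0.09), and Cyp51, at 67.3, 68.8 and 86.6 and 18.9, 20.2 and 23.7 (-1.80 ± 0.13), fell. With total counts alone Hmgcs1 (-0.54) was not called. The synthase Fasn (8.76, 6.56 and 7.68 and 7.36, 6.42 and 12.3, 0.21 ± 0.25) was called with total counts alone (0.71) and not with TMM factors. The cholesterol exporter Abca1 rose, from 2.94, 2.95 and 2.18 to 10.7, 9.45 and 10.3 (1.94 ± 0.14).

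Of 11 genes of gluconeogenesis, a pathway of the proximal tubule, 10 fell and 1 rose. Pck1 (ENSMUSG00000027513, chr2:173153048-173159273), which starts the pathway, was at 1532, 1205 and 858 scaled FPKM in Control and 164, 131 and 89.6 in HN. Fbp1 was at 653, 638 and 568 and 155, 163 and 137, and G6pc, which releases glucose, at 463, 302 and 235 and 49.8, 47.0 and 27.4. No HN mouse came near a Control mouse in these genes (-3.20 ± 0.30, -2.01 ± 0.10 and -2.99 ± 0.33). The mitochondrial form Pck2 rose at a low level, from 1.99, 1.53 and 1.39 to 3.03, 3.42 and 3.37 (1.02 ± 0.15). Glycolytic genes were mixed, with 3 of 18 higher and 3 lower (median -0.25), and 7 higher and 0 lower with total counts alone (median 0.25). With TMM factors these shares were near those over all tested genes, 20.2% higher and 16.9% lower. Hk2, the inducible hexokinase, rose from 0.433, 0.196 and 0.199 to 4.14, 3.21 and 3.71 (3.74 ± 0.34), whereas Hk1 was at 12.4, 13.9 and 13.3 and 15.2, 13.2 and 15.6 (0.18 ± 0.09) and Pkm at 42.2, 46.9 and 46.1 and 66.8, 61.2 and 63.2 (0.52 ± 0.08), and both were called with total counts alone (0.67 and 1.02), Pkm also with upper-quartile factors (0.59). Pgk1 (-0.87 ± 0.07) and Ldha (185, 181 and 181 to 119, 112 and 109, -0.66 ± 0.07) fell, and were not called with total counts alone (-0.38 and -0.17).

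Genes of the respiratory chain fell in both genomes. All 13 mitochondrially encoded protein genes fell, with a median of -1.88 (-1.38 and 13 called with total counts alone). The most abundant, mt-Co1, was at 26519, 26290.4 and 31499 scaled FPKM in Control and 10729, 11036 and 10619 in HN (-1.36 ± 0.12), mt-Cytb at 18634, 18499.7 and 22708 and 5634, 5223 and 5424 (-1.85 ± 0.12) and mt-Nd1 at 13518, 10992 and 16696 and 4159, 4298 and 4587 (-1.63 ± 0.16). Control replicate 5 stood far above its groupmates in mt-Atp6, at 3137, 2955 and 17898 in Control against 1032, 1030.2 and 891 in HN, and without it the log2 difference was -1.60 in place of -2.99. Of 38 nuclear genes of the chain 37 fell within a narrow range, with a median of -0.96, and 10 fell with total counts alone. Sdha was at 214, 214 and 213 and 95.3, 96.2 and 88.7 (-1.17 ± 0.07), Uqcrc2 at 191, 185 and 184 and 92.3, 81.1 and 85.3 (-1.09 ± 0.08), Atp5a1 at 615, 633 and 627 and 306, 281 and 291 (-1.07 ± 0.07), Ndufs1 at 37.8, 37.7 and 41.2 and 16.7, 15.6 and 16.4 (-1.24 ± 0.07) and Ndufa1 at 259.7, 279.9 and 203 and 134, 125 and 102 (-1.02 ± 0.15). With total counts alone Atp5a1 (-0.58) and Ndufa1 (-0.53) were not called. Cox4i1 was the member that was not called (298, 305 and 221 and 183, 217 and 222, -0.38 ± 0.15).

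Of 16 genes of the citrate cycle and its side reactions 14 fell. Mdh1 was at 289, 386 and 321 scaled FPKM in Control and 114, 104 and 107 in HN (-1.59 ± 0.12), Me1 at 161, 151 and 200.1 and 42.8, 54.4 and 45.7 (-1.82 ± 0.14), and Cs, the entry enzyme, at 43.0, 43.1 and 50.4 and 35.2, 32.6 and 35.0, which was under the fold of 1.5 (-0.39 ± 0.09). Enzymes of amino acids and creatine fell in 22 of 25 cases. Ass1, which makes arginine for the body, was at 633, 776 and 769 and 159, 163 and 156 (-2.16 ± 0.10), Gatm, the first enzyme of creatine synthesis, at 225, 247 and 328 and 74.5, 72.0 and 76.2 (-1.82 ± 0.14), and Dao at 85.9, 92.4 and 94.2 and 37.2, 34.5 and 35.9 (-1.32 ± 0.07). The tyrosine-degrading enzyme Hpd fell most (24.6, 26.9 and 12.6 to 2.45, 1.45 and 1.24, -3.62 ± 0.38).

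Peroxisomal and antioxidant enzymes fell in 13 of 16 tested cases (9 with total counts alone). Cat (catalase) was at 398, 353 and 389 scaled FPKM in Control and 127, 125 and 107 in HN (-1.64 ± 0.10), Sod1 at 115, 113 and 118 and 41.0, 41.8 and 37.8 (-1.50 ± 0.07) and Mpv17l at 175, 178 and 80.1 and 13.2, 14.9 and 16.2 (-3.27 ± 0.32). Gpx1 was at 1433, 1193 and 494 and 615, 636 and 534, with Control replicate 5 under every HN mouse, and was called only without that mouse among the libraries left out (-1.12 against -0.78), and in DESeq2 (-0.79). Of 16 tested targets of NRF2, the regulator of the oxidant defence, and genes of ferroptosis, 1 rose and 5 fell, and with total counts alone 4 rose and 0 fell. Hmox1, the heme-degrading enzyme, was at 211, 29.4 and 84.3 and 28.3, 28.4 and 20.4, and it fell (-2.05 ± 0.63), with Control replicate 2 far above the other mice. It was not called without Control replicate 2 (-1.11), HN replicate 4 (-2.12), HN replicate 8 (-2.13) or HN replicate 12 (-1.91) or with total counts alone (-1.56). Gclc, which makes glutathione, was at 219, 193 and 142 and 51.5, 121 and 54.9 (-1.26 ± 0.35) and was not called without Control replicate 2 (-1.11), Control replicate 4 (-1.22), HN replicate 4 (-1.04) or HN replicate 12 (-1.07) or with total counts alone (-0.77). Nqo1 was at 43.9, 41.6 and 28.4 and 29.9, 30.2 and 22.2 (-0.45 ± 0.19) and was called lower without Control replicate 5 (-0.62). Acsl4, which supplies lipids to ferroptosis, rose (16.2, 13.8 and 9.78 to 23.2, 22.5 and 16.9, 0.67 ± 0.20), but not without Control replicate 4 (0.72), Control replicate 5 (0.50), HN replicate 4 (0.59) or HN replicate 8 (0.62).

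Enzymes of drug and steroid metabolism fell in 17 of 25 cases. Cyp2e1 was at 672, 528 and 612 scaled FPKM in Control and 80.7, 88.2 and 99.0 in HN (-2.73 ± 0.13), and Cyp4b1 at 982, 923 and 1229 and 185, 222 and 217 (-2.30 ± 0.14). The male-type Cyp4a12a fell further (-3.06). Gsta2 was at 135, 103 and 75.5 and 68.3, 78.1 and 53.4 and was called without Control replicate 5 (-0.81 against -0.63), in DESeq2 (-0.63) and with all 9 libraries in the fit (-0.65). Ugt1a2, which shares 59.3% of its exon bases with other genes of its cluster, was at 6.59, 1.15 and 6.97 and 1.76, 64.6 and 7.91, a range set by HN replicate 8 alone, and was not called (2.36 ± 1.26; 0.01 without that mouse).

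Genes of cell division rose in 16 of 19 tested cases, from low levels. Members such as Aurkb and Ccnb1 reached the level needed for testing only through HN. Without a filter on level 17 of 20 rose. Mki67, present in dividing cells, was at 0.187, 0.265 and 0.658 scaled FPKM in Control and 2.67, 2.87 and 3.56 in HN (3.06 ± 0.45; 3.76 without Control replicate 5), Top2a at 0.187, 0.276 and 0.509 and 2.59, 2.98 and 2.997 (3.14 ± 0.34), and the mitotic genes Ccnb1 at 0.0702, 0.173 and 0.285 and 1.35, 1.49 and 1.37 (2.97 ± 0.47) and Aurkb at 0.0351, 0.0230 and 0.174 and 1.18, 1.32 and 1.38 (4.02 ± 0.76; 5.63 without Control replicate 5). The replication clamp Pcna was at 20.2, 21.8 and 15.1 and 29.7, 22.5 and 25.9 (0.48 ± 0.16) and was called without Control replicate 4 (0.59) and with total counts alone (0.96). Of 17 genes of the p53 response and senescence 8 rose. The inhibitor Cdkn1a (p21) was at 9.96, 7.96 and 2.59 and 15.6, 10.6 and 8.90 and overlapped between the groups (0.79 ± 0.46; 1.26 and called with total counts alone). Mdm2 was at 8.19, 8.54 and 8.71 and 8.23, 7.69 and 6.86 (-0.14 ± 0.09), and Bax, a pore-forming death protein, at 17.1, 17.4 and 19.0 and 24.5, 25.9 and 24.9 (0.52 ± 0.08; 1.01 and called with total counts alone). Cdkn2a (p16) rose from 0.0936, 0 and 0 to 0.966, 1.37 and 0.394 (4.79 ± 1.10), with counts in 1 of 3 Control mice, without which the log2 difference was 9.58. Cdkn2a too was tested only because of its level in HN. Cdkn2b was called higher (2.97, 4.51 and 1.85 to 6.52, 6.33 and 5.21, 0.97 ± 0.32), but not without Control replicate 2 (0.94), HN replicate 4 (0.91), HN replicate 8 (0.93) or HN replicate 12 (1.06), nor without a filter on level.

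Genes of cell death rose in 13 of 19 cases and fell in 1. Ripk3, a kinase of necroptosis, was at 0.257, 0.564 and 0.223 scaled FPKM in Control and 2.02, 2.33 and 2.45 in HN (2.67 ± 0.38), and its effector Mlkl at 0.784, 0.967 and 0.943 and 2.69, 5.23 and 3.36 (2.08 ± 0.28). The survival gene Bcl2 rose by less (1.68, 1.63 and 1.95 to 2.80, 2.77 and 2.78, 0.69 ± 0.10), and Bcl2a1b of leukocytes by more (1.29, 2.11 and 0.496 to 17.7, 18.9 and 18.4, 3.84 ± 0.46). Bcl2l1, at 11.8, 10.3 and 18.03 and 10.03, 8.15 and 16.2 (-0.20 ± 0.30), was not called. Bid fell, from 22.5, 20.9 and 23.2 to 9.08, 9.18 and 9.22 (-1.25 ± 0.07). Immediate early and stress factors rose in 14 of 18 tested cases. Jun was at 13.1, 12.8 and 11.2 and 40.2, 34.4 and 32.1 (1.54 ± 0.11), Atf3 at 0.456, 1.04 and 0.931 and 12.5, 8.85 and 6.56 (3.54 ± 0.37) and Runx1 at 0.117, 0.150 and 0.149 and 2.78, 2.06 and 2.26 (4.06 ± 0.17). Fos was at 1.23, 0.161 and 2.17 and 4.67, 3.46 and 3.77, and was not called (1.76 ± 0.72) but was without Control replicate 4 (1.25), without Control replicate 5 (2.52) or with total counts alone (2.27).

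Some genes often used as references differed between the groups, and 2 of 14 rose and 5 fell (median -0.15, and 0.35 with 4 higher and 1 lower with total counts alone). Actb was at 122, 128 and 96.5 scaled FPKM in Control and 227, 228 and 208 in HN (0.96 ± 0.12; 1.44 with total counts alone), and B2m at 305, 334 and 319 and 920.1, 1323 and 869.6 (2.22 with total counts alone). Pgk1 was at 260.4, 257 and 272 and 147, 141 and 137. Gapdh was at 5.02, 4.03 and 6.96 and 3.13, 3.37 and 3.22 (-0.69 ± 0.19) and lost its call without Control replicate 5 (-0.45), HN replicate 4 (-0.67) or HN replicate 12 (-0.69) and with total counts alone (-0.19). Tbp, at 1.19, 1.27 and 1.24 and 1.39, 1.26 and 1.17, was not called (0.06 ± 0.10; 0.55 with total counts alone), nor was Ppia, at 209, 205 and 208 and 77.5, 140.5 and 171 (-0.65 ± 0.26), though it was called without HN replicate 12 (-0.91) and in DESeq2 (-0.66) and with all 9 libraries in the fit (-0.68). Ribosomal protein genes rose in 3 of 28 cases and in 27 with total counts alone. Rpl3 (83.1, 84.2 and 66.7 to 123, 119.7 and 140.3, 0.74 ± 0.12) was called, Rplp0 (416, 441 and 377 and 527, 500.1 and 519, 0.35 ± 0.09) and Rps3 (87.2, 86.0 and 80.2 and 116, 109 and 108, 0.42 ± 0.07) were not, and with total counts alone both were (0.84 and 0.91).

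Genes of tissues that could be carried along with a kidney were measured as well, and their part in the results was not tested. Blood and muscle markers had 7 of 10 members tested, all of them lower, with a summed level of 409.6, 389 and 645 scaled FPKM in Control and 80.5, 63.8 and 47.3 in HN. The most abundant, the hemoglobin gene Hba-a1, was at 161, 157 and 248 and 32.9, 24.4 and 20.3 (-2.84 ± 0.25), Hba-a2 at 137, 139 and 236 and 26.6, 21.2 and 12.9 (-3.05 ± 0.33) and Hbb-bs at 56.4, 39.8 and 90.3 and 10.6, 9.30 and 6.34 (-2.80 ± 0.33). The muscle gene Ckm was at 0, 0 and 0.0248 and 0, 0 and 0.0164. Blood-cell transcripts were thus more abundant in every Control mouse than in any HN mouse. Of 8 fat cell markers 6 were tested and 0 were called in edgeR, also 0 by unadjusted p, in DESeq2 and in limma. Their sum was 38.8, 16.8 and 14.7 in Control and 14.6, 11.1 and 61.8 in HN, with Fabp4 the most abundant and Adipoq at 1.85, 0 and 0 and 0.0776, 0 and 3.999, and Plin1 at 0.491, 0 and 0 and 0.0259, 0 and 0.821, so that fat cell transcripts were highest in Control replicate 2 and HN replicate 12.

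Adrenal markers summed to 0.573, 0.817 and 0.682 scaled FPKM in Control and 0.647, 0.871 and 0.928 in HN, mostly Star (0.538, 0.794 and 0.682 and 0.586, 0.769 and 0.837, 0.14 ± 0.24), the 1 of 8 members tested. The defining genes Cyp11b1 (0, 0 and 0 and 0.0172, 0.00846 and 0.0246) and Cyp11a1 (0, 0 and 0 and 0.00862, 0.0423 and 0.00821) were at 0 in all Control mice and near 0 in HN. Urothelial markers of the renal pelvis summed to 9.37, 10.8 and 8.38 in Control and 4.36, 5.67 and 9.58 in HN, and 7 of 8 were tested, 2 lower and 1 higher. Upk3a, the most abundant, was at 2.07, 2.08 and 1.63 and 0.966, 1.39 and 2.59 (-0.20 ± 0.39), Upk1b at 0.866, 1.24 and 0.682 and 0.250, 0.567 and 0.829 (-0.73 ± 0.46) and Upk2 at 1.02, 1.27 and 0.968 and 0.190, 0.186 and 0.493 (-1.85 ± 0.44; -2.44 without HN replicate 12). Upk1a, at 2.43, 2.11 and 2.26 and 1.02, 0.702 and 1.72 (-0.96 ± 0.35), was called lower without HN replicate 12 (-1.38) and in DESeq2 (-0.96). Krt14 was called higher (0.257, 0.472 and 0.285 to 0.491, 0.837 and 0.895, 1.12 ± 0.38), but not without Control replicate 2 (0.95), Control replicate 5 (1.02), HN replicate 8 (1.02) or HN replicate 12 (0.96). With all 9 libraries in the fit the calls of Krt14 (1.09) and Upk2 (-1.87) were lost, as in limma on the deposited FPKM (0.54 and -0.52), and that of Krt14 also without a filter on level.

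**Figure D5:**
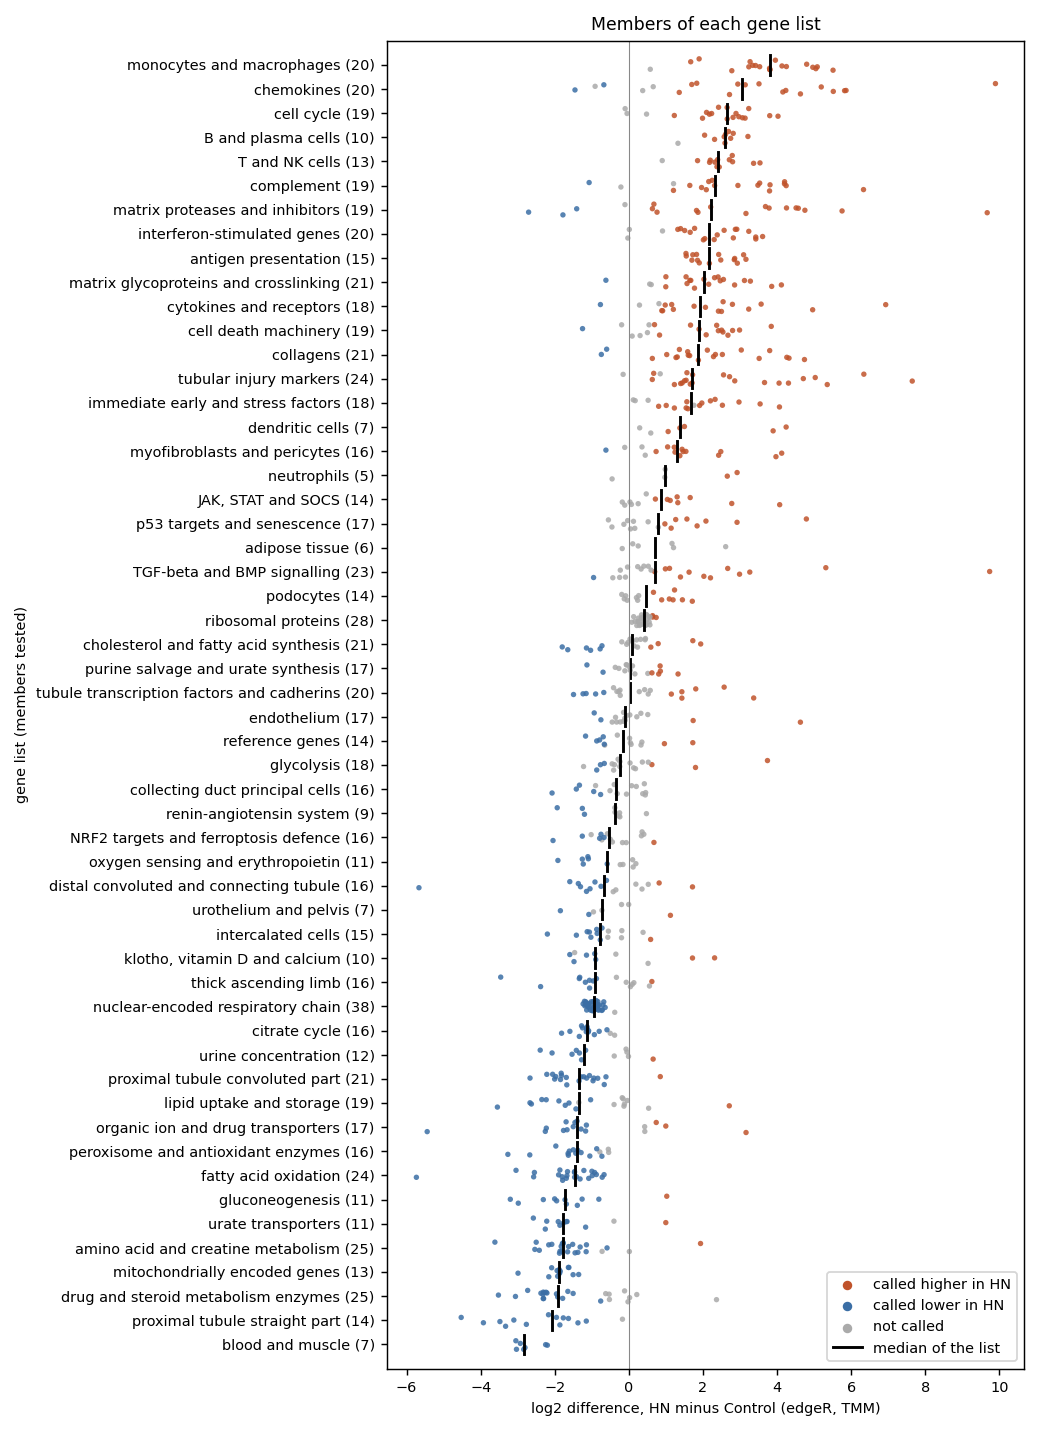
Log2 difference (HN minus Control) of each tested member of 54 gene lists with at least 3 tested members, coloured by whether it was called higher, called lower or not called, with a bar at the list's median. Medians run from 3.80 for monocytes and macrophages to -2.84 for blood and muscle; with total counts alone the medians of principal cells, the renin-angiotensin system, endothelium, glycolysis and reference genes change sign.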

How the data were processed

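RNA of whole kidney was sequenced after Trizol extraction and poly(A) selection. The deposited extraction text speaks of an adipose type, which differs from the labelled tissue, kidney. The authors deposited 1 table of counts per gene, without normalization, and FPKM made from those counts, gene lengths and library totals. The counting program is not given; the deposited notes name Bowtie 0.12.2 and the builds mm8 and mm9, but 51991 of the 55144 genes shared with GENCODE release 21 have identical GRCm38 coordinates. Count and FPKM columns were checked to belong to the same libraries.

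The 3 HN and 3 Control libraries were compared with edgeR 4.0.16 (glmQLFit and glmQLFTest, TMM factors) in R 4.3.3 over genes with a mean of 0.5 FPKM or more, and the SE was taken as the absolute log2 difference over the square root of F. Tables and figures used Python 3.11.15, pandas 2.3.3, numpy 2.4.6, scipy 1.17.1 and matplotlib 3.10.9. The fitting functions were run on simulated counts in which few genes changed, equally often up and down. That setting lacks the broad change in composition of these data, so it does not test the scaling.

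The members and the 55 lists were chosen with earlier results of these data known. Genes named are those marked in the lists for their textbook role, the called member with the largest rise and the largest fall of each list, and the 10 largest rises and falls over all genes with a mean of 5 FPKM or more and groups that did not overlap. Further members are named where a list is described. Some genes that this rule names and 1 planned promoter motif are not reported here.

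Alternatives were DESeq2 1.42.0 with its size factors, upper-quartile factors, total counts only, TMM without mitochondrial genes, limma 3.58.1 on log2(FPKM + 1), on log2(FPKM + 0.1) and on TMM-scaled FPKM, no FPKM filter, a mean FPKM of 1 or more, all 9 libraries in the fit, other call thresholds, and each library left out in turn. Counts divided by 4 were tried after seeing the data. The PEC libraries were left out of the comparison, since the mice had been treated.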

Additional observations from a re-analysis of the deposited data

Results flagged for a closer look

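The 3 libraries of mice given PEC were not used in the comparison, and in the 10 genes with the largest rises they held a signal above every Control library. These genes were picked by their rise over the same Control libraries, so low Control values were part of the choice. How often PEC lay above Control over all tested genes was not counted. The deposited FPKM, without TMM scaling, is given for these genes. It summed to 448442, 439996 and 457069 in the PEC libraries and to 349547, 348174 and 346594 in HN. The order of PEC and HN levels may therefore change with the scaling. Cxcl5 was at 1.95 to 5.56 FPKM in the PEC libraries, against at most 0.03 in Control and 10.65 to 14.88 in HN. Mmp7 was at 9.54 to 30.38 (Control at most 0.04, HN 28.13 to 39.08), and Il1f6 at 11.55 to 13.45 (at most 0.05 and 12.08 to 17.61). Havcr1 was at 128.87 to 236.68 (at most 1.54 and 275.36 to 333.73), and Cxcl17 at 8.54 to 11.93 (at most 0.06 and 9.95 to 12.51). Fcrls was at 2.68 to 5.08 (at most 0.14 and 14.80 to 19.45), and Serpina10 at 22.71 to 30.61 (at most 0.35 and 33.79 to 36.83). Lcn2 was at 66.91 to 209.54 (at most 2.01 and 136.24 to 175.95), C3 at 195.1 to 222.18 (at most 2.47 and 210.23 to 242.95), and Ccl8 at 3.19 to 12.60 (at most 0.37 and 15.90 to 20.79). No difference from the PEC libraries was tested.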

How the results depend on the processing

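Of the 266 tested genes that the naming rule takes, 0 reversed a called direction in any of the 17 alternative fits. Leaving out 1 library ended the call of 14 of the 204 called ones and gave a call to 15 others; further members named in the text, such as Col4a4, are not in these numbers. Calls lost and gained were 22 and 26 with total counts only, 26 and 22 in limma on log2(FPKM + 1), 22 and 25 on log2(FPKM + 0.1) and 13 and 2 on TMM-scaled FPKM. Genes called in neither fit changed sign in 94 cases.

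The balance of rises and falls depends on the scaling. Rises made up 54.4% of the calls with TMM factors, 84.3% with total counts only (6245 higher, 1161 lower), 81.9% in limma on log2(FPKM + 1) (4722 and 1044) and 83.2% in limma on log2(FPKM + 0.1) (6012 and 1216). The last 3 make no correction for composition, and the median log2 difference of all genes was 0.51, 0.36 and 0.48 in them. A fold change of at least 2 left 2149 genes higher and 1449 lower, and no minimum fold gave 4045 and 3866. DESeq2 called 3113 genes higher and 2687 lower, of which 3034 and 2550 were called by edgeR too. Dividing the counts by 4, chosen after seeing the data, gave 3094 and 2579.

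Without 1 library at a time, 2848 to 3029 genes were higher and 2391 to 2508 lower, and the mitochondrial share of counts differed by -8.60 to -6.94 points. With a mean FPKM of 1 or more no adrenal marker was tested, so that list has no value there. No paired analysis was possible because the groups share only replicate number 4, which no label says marks a pair. Since multiples of 4 are in excess among low counts, the number of fragments behind a low count is unknown, and log2 differences of genes near 0 in Control, such as Cxcl5, are uncertain in size. With 3 mice per group and no label of batch or litter, these cannot be told apart from the disease.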

Other observations

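Genes in which 1 mouse lay at least 2-fold above or below both groupmates, while those differed by less than 1.25-fold, were listed for each library after the values had been seen. HN replicate 8 was above both groupmates in 35 of 9317 genes compared, 6 of them of the interferon list. Irf7, a regulator of interferon genes, was at 10.3, 35.9 and 10.04 scaled FPKM in HN replicates 4, 8 and 12, Bst2 at 77.6, 201 and 82.6 and Ifi27l2a at 63.96, 179 and 62.8. In Control they were at 1.46 to 2.24, 16.9 to 22.6 and 6.34 to 12.7, so that each HN mouse lay above each Control mouse.

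HN replicate 4 was above both groupmates in 39 of 9687 genes. The heat shock genes Hspa1a (54.1, 11.1 and 13.2 in HN) and Hspa1b (105, 22.5 and 28.2) and the steroid-responsive gene Tsc22d3 (30.7, 8.20 and 8.42) were among them, with Control mice at 17.7 to 22.1, 31.1 to 39.6 and 11.8 to 20.9. Ugt1a5, which shares 1311 exon bases with Ugt1a2 on the same strand, was at 62.5 in that mouse and at 0 and 0.0164 in its groupmates. In HN replicate 12 the abundant plasma peroxidase Gpx3 was at 2492, against 7111 and 6873.

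Control replicate 2 was below both groupmates in 25 of 8469 genes, among them the clock genes Dbp (3.39 against 22.8 and 21.5) and Nr1d1 (7.75 against 18.3 and 16.7). It was above them in Pdk4 (31.8 against 11.9 and 10.2) and Acot2 (28.5 against 12.3 and 11.6), both of fatty acid use, and in the potassium channel Kcnj16 (159 against 15.97 and 18.3). Control replicate 5 was above its groupmates in 41 and below in 52 of 9437 genes. Odc1, which starts polyamine synthesis, was at 513 there and at 203 and 201 in the others. No label gives a time of day, and the cause of these differences was not tested.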
